A study of Mus musculus with 12 samples.

Results

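Nodal, Lefty1, Lefty2, Gdf3 and Tdgf1 were followed across the 4 cell groups of a mouse neural differentiation series. They are 5 of the 22450 genes tested against mouse embryonic stem cells (mESC), and each was read from its brightest non-control probe, the one with the highest mean intensity over both dyes and all arrays. The 5 were chosen by measured values of these arrays, because Lefty1 and Lefty2 lay far below mESC in unsorted cells in which Pou5f1 lay close to it. The values in unsorted cells, and every difference that includes them, are therefore given as a description with no test for these genes and for Pou5f1. Tests were kept to the enriched cells, which share the mESC reference with the unsorted cells.

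All cells derived from C57BL/6 mESC with an Actin-eGFP transgene, which the labels' protocol describes as kept on mitomycin-treated mouse fibroblasts with LIF before feeder removal and embryoid body formation. At step 4, neural precursors had been expanded for 5 days on laminin with bFGF at 10 ng/ml. At step 5, cells had spent 7 days without bFGF and with ascorbic acid at 200 µM. At each step, unsorted control cells and cells enriched on magnetic beads for PSA-NCAM, a polysialylated neural cell adhesion molecule, were each represented by 3 biological replicates. For the enriched cells of step 5, the labels do not settle on which side of these 7 days the sort took place. Each of the 12 arrays carried Cy5-labelled RNA of 1 sample beside Cy3-labelled RNA of mESC as common reference, with 0 dye swaps, so that each value is a log2 ratio to mESC: 0 is the mESC level and each unit is a doubling or halving.

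Nodal is a secreted ligand of the TGF-beta family. It signals through activin receptors and the co-receptor Tdgf1, also known as Cripto, to Smad2 and Smad3, which act with Smad4 and Foxh1 on target genes. Lefty1 and Lefty2 are themselves classical targets of this signal and encode secreted inhibitors that block Nodal and its co-receptor. Gdf3 is a related ligand that also needs Tdgf1. All 5 genes are typically transcribed in mESC, and blocking the pathway favours neural fate.

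The identity of the values rests on the probes, whose first 30 of 60 bases are shown here 5′ to 3′ for the probe that stands for each gene. Capitals mark a run in the Tdgf1 probe that is taken up with the Tdgf1 values, and the other sequences have none.
Nodal: ttattagattataaacgagccatttggttc
Lefty1: ctttcatgcaaatctgaagtgctcattata
Lefty2: aagggtgtacctgagtctttctggccattg
Gdf3: ctatcaggatagtgataagaacgtcattct
Tdgf1: ctacacagAAACCCTGTCTCggggagaaaa
The array annotation places these probes on mouse build mm9, for Nodal at chr10:60887790-60887849 on the plus strand, for Gdf3 at chr6:122556340-122556399 on the minus strand and for Tdgf1 at chr9:110842722-110842781 on the minus strand. The Lefty1 probe lies at chr1:182868137-182868196 and the Lefty2 probe at chr1:182828893-182828952, both on the plus strand and 39.2 kb apart. The longest run of bases shared by these neighbouring genes' probes is 5, so the probes share no long stretch. Exon or UTR placement of the probes was not assigned here. The 5 genes have 8 probes in all. The probe used for each gene was well above background in both channels on all 12 arrays, and the local background around these spots was 43 to 66 scanner units in Cy5 and 16 to 38 in Cy3.

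Across all probes, 25605 to 29076 were well above background in Cy5 per array and 23424 to 25687 in Cy3, and arrays of a group correlated at 0.663 to 0.963 (Pearson r over genes), lowest among step 5 control arrays. Replicates 1, 2 and 3 of every group shared slides 1, 2 and 3. Of all genes, 21.4% and 25.6% were called higher than mESC (limma, adjusted p under 0.05) in control cells of steps 4 and 5. In enriched cells the shares were 35.4% and 38.3%. Of the 8 markers of neural precursors and neurons, 6 were higher than in mESC in the control cells of each step and 8 in the enriched cells of each step. Their median log2 ratio per array was 0.57 to 3.06 in control cells and 3.38 to 3.91 in enriched cells. Markers of fibroblasts and mesenchyme were also high in both kinds of cell, with medians per array of 2.84 to 6.43 in control and 4.41 to 6.56 in enriched cells, 7 of 8 passing as higher at step 4 and 8 of 8 at step 5. Every neural, mesenchymal, germ cell and pluripotency marker was well above background on some array of each group. Among 7 endoderm markers, only Apoa1 was not, in both groups of step 4.

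Lefty1 was far below mESC in the step 4 control cells. Its log2 ratios were -3.81, -4.77 and -4.46, a mean of -4.35 ± 0.49 (SD, n = 3) or 20.3-fold below mESC. The unprocessed signals show a gap in the same direction, with Cy5 at 676, 594 and 403 against Cy3 at 4470, 5680 and 5820. This gap is narrower than that of the normalized ratios on each array. All 3 arrays lay low. In the step 5 control cells the ratios were -1.40, -4.34 and -2.49, a mean of -2.75 ± 1.49, 6.71-fold below mESC. Replicate 1 was the highest and replicate 2 stayed within the range of step 4, so these groups overlapped. Without replicate 1 the step 5 control mean was -3.42, and without replicate 2 it was -1.95.

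Lefty2 followed the same order. Its ratios in step 4 control cells were -4.20, -4.81 and -4.27, a mean of -4.43 ± 0.33 or 21.5-fold below mESC. Unprocessed Cy5 was 601, 711 and 471 against Cy3 at 5150, 6900 and 5960, again a narrower gap. In step 5 control cells they were -2.54, -4.69 and -3.47, a mean of -3.57 ± 1.08 or 11.8-fold below mESC. Replicate 1 was again highest and replicate 2 lowest, inside the step 4 range. The mean was -4.08 without replicate 1 and -3.01 without replicate 2.

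**Figure D1:**
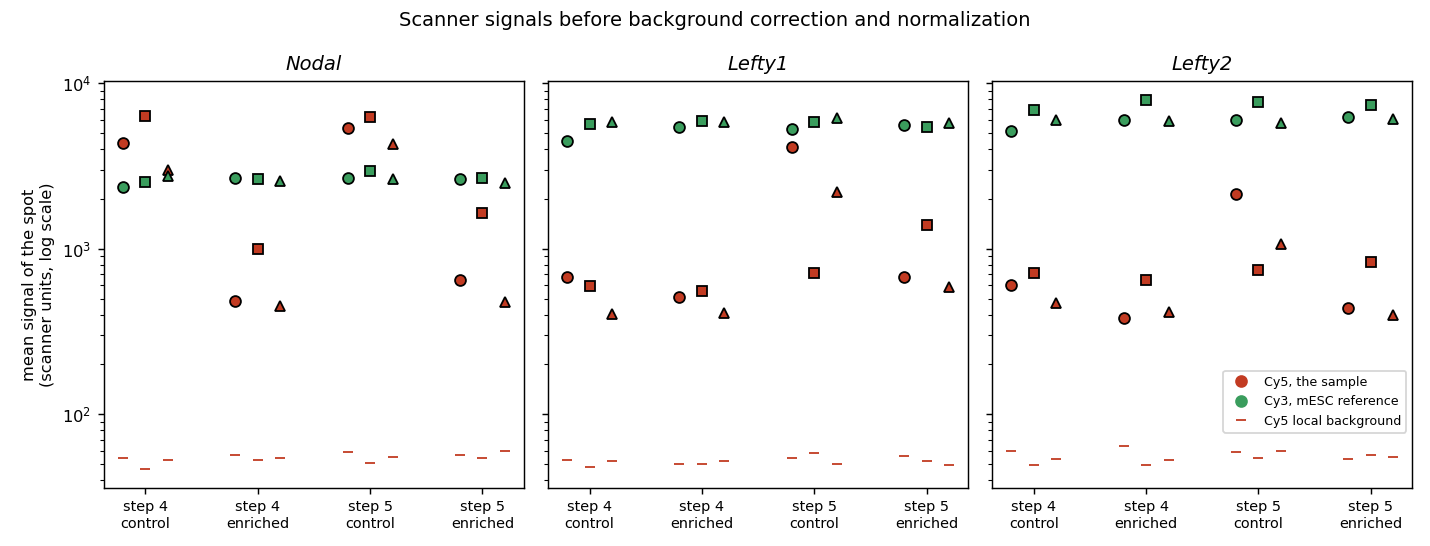
Mean Cy5 (sample, red) and Cy3 (mESC, green) signals of the Nodal, Lefty1 and Lefty2 spots on each array before any correction, in scanner units on a log axis, with the Cy5 local background as dashes and replicates 1, 2 and 3 as circles, squares and triangles. In control cells Cy5 for Lefty1 reached 4120 on only 1 array, replicate 1 of step 5, while Cy5 for Nodal was 2990 to 6380. Before normalization Cy5 for Nodal lies above Cy3 on the control arrays, unlike the sign of its normalized ratio.

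Set among all genes, the Lefty pair stood at the very end of the range in control cells. At step 4, Lefty2 had the lowest ratio of the 22450 genes and Lefty1 the next, followed by Trh at -3.85. At step 5, 2 genes, Glod5 at -4.14 and Trh at -3.85, were lower than Lefty2, and 11 were lower than Lefty1. These other genes are named because of their rank, after their values were seen. In the same step 4 control cells, 38.9% of all genes passed the test against mESC, 17.4% as lower. At step 5 these shares were 44.6% and 19%.

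Pou5f1, the core transcription factor of pluripotent cells, was nearer to mESC than the Lefty pair on the same control arrays. It measured -0.62, -0.71 and -0.67 at step 4, which is 63% of mESC by the mean of -0.67 ± 0.04, and -0.50, -0.70 and -0.86 at step 5, which is 62.1% by the mean of -0.69 ± 0.18. Nanog, another pluripotency factor, averaged -1.03 ± 0.26 and -0.69 ± 0.27. The second Nanog probe averaged -0.81, -4.18, -0.72 and -3.85 in step 4 control, step 4 enriched, step 5 control and step 5 enriched cells. Its dimmest probe was near 0 in every group (0.06, -0.11, 0.05 and -0.15 in the same order), unlike the brightest and the second. Lefty1 minus Pou5f1 on the same array was -3.18, -4.06 and -3.79 at step 4 and -0.90, -3.65 and -1.63 at step 5. Lefty2 minus Pou5f1 was -3.57, -4.09 and -3.61 at step 4 and -2.04, -3.99 and -2.61 at step 5. Both differences were negative on all 6 control arrays and smallest on replicate 1 of step 5. The step 5 mean for Lefty1 minus Pou5f1, -2.06 ± 1.42, was -2.64 without replicate 1 and -1.26 without replicate 2.

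**Figure D2:**
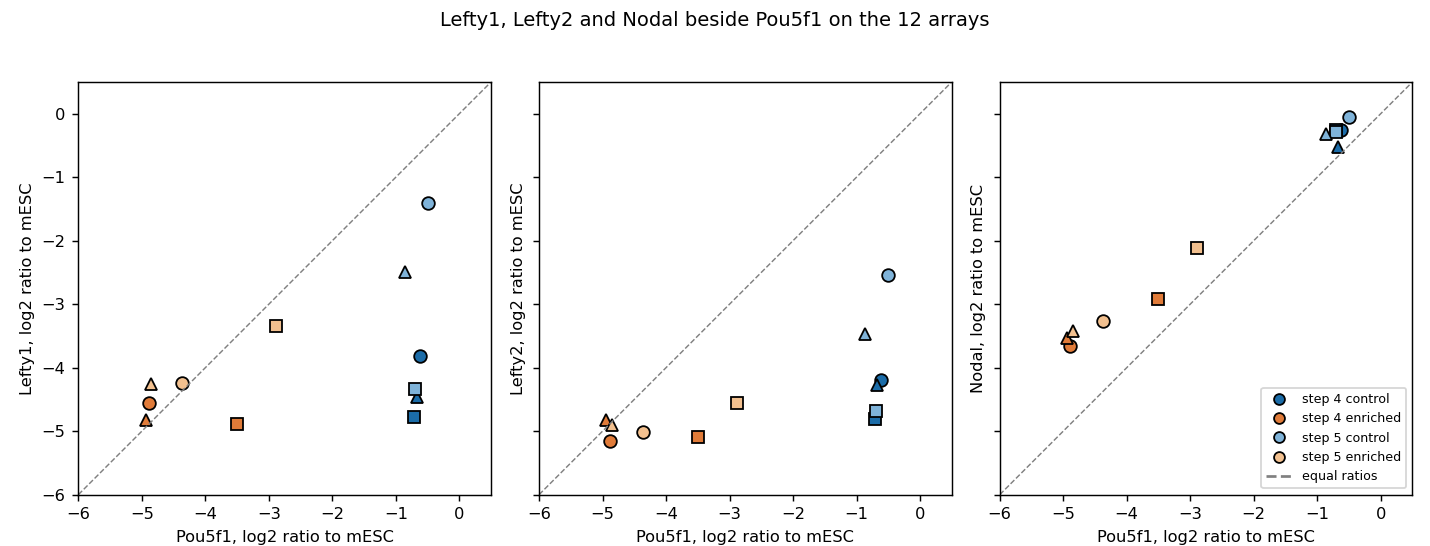
Log2 ratio to mESC of Lefty1, Lefty2 and Nodal (vertical) against that of Pou5f1 (horizontal) on the 12 arrays, coloured by group, with replicates 1, 2 and 3 as circles, squares and triangles and a dashed line where both ratios are equal. Control arrays lie below the line for Lefty1 and Lefty2, nearest to it on replicate 1 of step 5 with differences of -0.90 and -2.04, whereas Nodal lies above it on all 12 arrays.

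The gap was measured for 16 pluripotency factors as well. In the step 4 control cells Lefty1 and Lefty2 were each below all 16 factors on 3 of 3 arrays. In the step 5 control cells this held on 2 of 3 arrays for Lefty1 and 3 of 3 for Lefty2. The lowest factor in control cells was Nr0b1, an orphan nuclear receptor of mESC, at -1.78 (SE 0.39) at step 4 and -1.97 (SE 0.39) at step 5, with adjusted p = 0.00494 and 0.0024 (limma, Benjamini-Hochberg). Neither of these calls held without the 4 arrays of slide 3. In the enriched cells Lefty1 was below all 16 on 1 of 3 arrays at step 4 and 0 of 3 at step 5, and Lefty2 on 1 of 3 at each step. By the mean, 7 and 9 of the 16 were lower than Lefty1 at steps 4 and 5, and 5 and 3 were lower than Lefty2.

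In contrast to its inhibitors, the ligand Nodal was near the mESC level in control cells. Its ratios were -0.26, -0.26 and -0.52 at step 4, a mean of -0.35 ± 0.15 or 78.7% of mESC. At step 5 they were -0.05, -0.29 and -0.32, a mean of -0.22 ± 0.15 or 85.8%. The 6 control values were close together and the 2 steps overlapped. With each array centred on its median in place of loess, the means were 0.14 and 0.20, so the direction from mESC depends on the scaling, whereas Lefty1 and Lefty2 stayed below mESC under every alternative run.

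Gdf3, the second ligand, gave -0.55, -0.93 and -0.75 in step 4 control cells and -0.49, -0.86 and -0.59 in step 5 control cells. These are means of -0.74 ± 0.19 and -0.65 ± 0.19, or 59.8% and 63.9% of mESC. Its dimmer probe read -0.58 ± 0.11 and -0.47 ± 0.09. The steps overlapped by either probe.

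Tdgf1, the co-receptor, gave -0.79, -1.50 and -1.03 in step 4 control cells, a mean of -1.11 ± 0.36 or 46.3% of mESC. In step 5 control cells it gave -0.44, -1.43 and -0.61, a mean of -0.83 ± 0.53 or 56.4%. Replicate 2 was the lowest at both steps, as it was for Lefty1, Lefty2 and Gdf3. The other probes of Tdgf1 read -1.44 and -1.42 at step 4 and -1.56 and -1.54 at step 5. Though less extreme than the Lefty pair, these genes were also low among all genes. In step 4 control cells Tdgf1, Nanog, Gdf3, Pou5f1 and Nodal stood within the lowest 2.34%, 2.85%, 5.77%, 7.07% and 17.7%. In step 5 control cells these ranks were 4.41%, 6.86%, 7.77%, 6.84% and 25.9%.

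**Figure D3:**
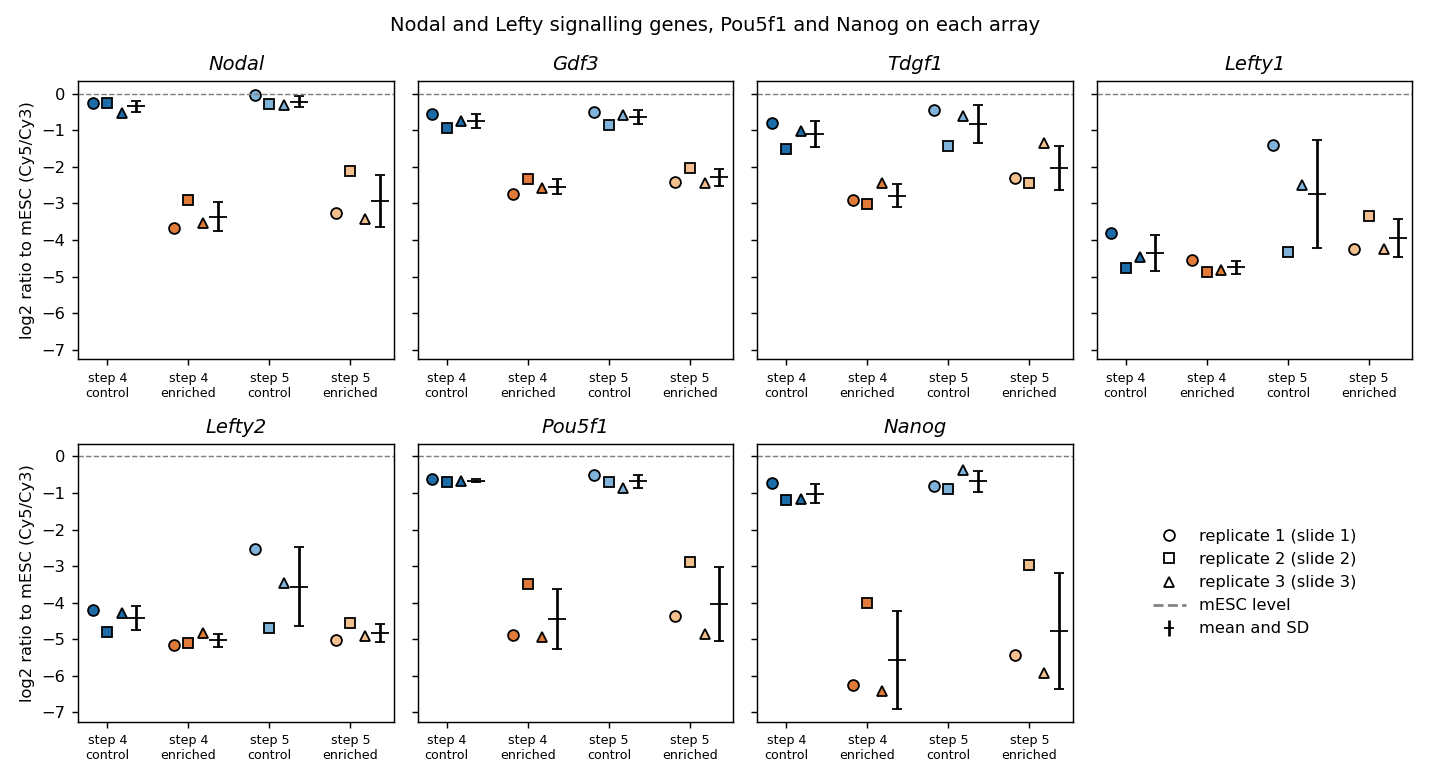
Log2 ratio to mESC of each gene on every array, by group, with replicates 1, 2 and 3 (slides 1, 2 and 3) as circles, squares and triangles, mean and SD (n = 3) as bars and the mESC level as a dashed line. Nodal, Gdf3, Tdgf1, Pou5f1 and Nanog have control means from -1.11 to -0.22, nearer the line than in enriched cells. Lefty1 and Lefty2 are low in all 4 groups.

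In bulk RNA, fewer cells that express a gene and less RNA per cell cannot be told apart. Other cell types differed between the control arrays on which the Lefty genes varied. The fibroblast and mesenchyme markers had medians of 6.14, 3.51 and 6.43 on replicates 1, 2 and 3 of the step 5 control cells, where Lefty1 was -1.40, -4.34 and -2.49. At step 4 their medians were 3.48, 2.84 and 3.53. The neural markers had medians of 1.99, 0.57 and 1.82 at step 5 and 2.39, 1.25 and 3.06 at step 4, also lowest on replicate 2. Endoderm, part of which makes Lefty1 in the early embryo, had marker medians of 0.59, 1.93 and 1.36 at step 5 and 0.32, 1.95 and 0.56 at step 4. Germ cell markers had medians of 0.42 to 1.78 over the 6 control arrays and -3.07 to -1.05 in the enriched cells. These markers were mixed in control cells. Prdm1 and Dppa3 averaged below mESC, at -1.44 and -0.51 at step 4, while Ddx4, Dazl, Mael and Sycp3 averaged above it. Replicate 2 was read with an older version of the scanner software than the others. The part of any of these in the Lefty values was not tested.

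In the enriched cells of both steps, all 5 genes fell below mESC: 5 of 5 were called lower at step 4, where 66.9% of all genes were called and 31.5% as lower, and 5 of 5 at step 5, where 71.4% were called and 33.1% as lower. Calls are limma tests of the ratio against 0, adjusted over 22450 genes. The reference is 1 RNA, so these tests leave out the spread of mESC. The genes were chosen by ratios to this same reference, and the model's spread is shared with the unsorted arrays. These tests are therefore not independent of the choice. The median log2 ratio of the 5 was -3.37 at step 4 and -2.94 at step 5, beside 0.03 and 0.05 over all genes.

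Nodal gave -3.66, -2.92 and -3.53 in step 4 enriched cells, a fall of 10.3-fold on average (mean -3.37, SE 0.22, adjusted p = 4.51e-07 by limma). At step 5 it gave -3.27, -2.12 and -3.43, a fall of 7.68-fold (adjusted p = 7.85e-07 by limma). Replicate 2 was the highest in both groups, and the same replicate was the highest for Pou5f1, at -3.50 of -4.89, -3.50 and -4.94 at step 4 and at -2.89 of -4.37, -2.89 and -4.85 at step 5. Gdf3 gave -2.74, -2.32 and -2.57 at step 4 and -2.41, -2.02 and -2.44 at step 5. This was 5.83-fold and 4.9-fold below mESC (SE 0.12 for both, adjusted p = 5.76e-08 and 7.58e-08 by limma). Its dimmer probe showed smaller falls, with means of -1.80 ± 0.20 and -1.71 ± 0.26.

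Lefty1 gave -4.56, -4.88 and -4.82 in step 4 enriched cells, 26.9-fold below mESC (SE 0.42, adjusted p = 3.56e-06 by limma). At step 5 it gave -4.24, -3.35 and -4.26, 15.4-fold below (adjusted p = 1.07e-05 by limma). Behind these ratios, Cy5 signals ranged from 411 to 559 in step 4 and from 583 to 1400 in step 5 enriched cells. Lefty2 gave -5.16, -5.09 and -4.82 at step 4, 32.5-fold below mESC (SE 0.30, adjusted p = 2.59e-07 by limma). At step 5 it gave -5.02, -4.55 and -4.91, 28.3-fold below (adjusted p = 2.37e-07 by limma). Among all genes, 27 were lower than Lefty2 and 40 lower than Lefty1 at step 4, and 16 and 76 at step 5.

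Tdgf1 gave -2.90, -3.03 and -2.43 in step 4 enriched cells, 6.89-fold below mESC (SE 0.24, adjusted p = 2.85e-06 by limma). At step 5 it gave -2.31, -2.43 and -1.35, 4.09-fold below (adjusted p = 2.22e-05 by limma). The probes of Tdgf1 disagreed on the size. The second probe averaged -4.25 ± 0.19 and -4.07 ± 0.33, and the dimmest -5.03 ± 0.32 and -4.54 ± 0.39, although the dimmest was well above background on only 1 of 3 arrays of step 4 enriched cells. With the mean of all its probes, Tdgf1 was -4.02 at step 4 and -3.55 at step 5. The brightest probe holds the run of 12 bases shown in capitals, which on the mouse genome is known from the B1 family of short repeats. The run was singled out after the values were seen. It is present on this strand in 10 of 39429 probes, or 0.0254%, and in 0 of the other Tdgf1 probes and 0 probes of the other 4 genes. Its part in the smaller fall was not tested.

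Between the steps, none of the 5 genes changed in enriched cells by limma, where 6.42% of all genes were called. Step 5 minus step 4 was 0.80 for Lefty1 (95% interval -0.53 to 2.13, adjusted p = 0.485 by limma), with higher values on 3 of 3 slides and no overlap of the groups. For Tdgf1 it was 0.75 (interval 0.00 to 1.51, adjusted p = 0.228 by limma), for Nodal 0.43 (-0.26 to 1.12, adjusted p = 0.47 by limma), for Gdf3 0.25 (-0.12 to 0.62, adjusted p = 0.429 by limma) and for Lefty2 0.20 (-0.74 to 1.14, adjusted p = 0.836 by limma). These intervals leave room for a doubling of Lefty1, Lefty2, Nodal and Tdgf1. Pou5f1 averaged -4.45 and -4.04 in these groups and overlapped too.

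Enriched minus control differences at step 4 were small for the Lefty pair beside those of the other genes. Nodal differed by -3.40, -2.66 and -3.01 on slides 1, 2 and 3, a mean of -3.02 (SE 0.31), Gdf3 by -2.19, -1.39 and -1.82 (mean -1.80, SE 0.17) and Tdgf1 by -2.11, -1.53 and -1.39 (mean -1.68, SE 0.34). Lefty1 differed by only -0.75, -0.11 and -0.36 (mean -0.40, SE 0.60) with overlapping groups, and Lefty2 by -0.97, -0.28 and -0.55 (mean -0.60, SE 0.42) without overlap. Limma called 31.2% of all genes at step 4, a measure unlike overlap, and the share of all genes without overlap is not given here. In all, 4 of the 5 genes did not overlap between the groups at step 4. This contrast holds the unsorted arrays by which the genes were chosen, and nothing is read from that count.

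At step 5, Nodal differed by -3.22, -1.83 and -3.11 (mean -2.72, SE 0.31), Gdf3 by a mean of -1.65 (SE 0.17) and Tdgf1 by -1.87, -1.0 and -0.74 (mean -1.20, SE 0.34). Lefty1 differed by -2.84, 1.00 and -1.77 (mean -1.20, SE 0.60) and Lefty2 by -2.48, 0.14 and -1.44 (mean -1.26, SE 0.42), so that slide 2 ran the other way for both. Without replicate 1 of the control cells the Lefty1 difference was -0.53, and without replicate 2 it was -2.0. Limma called 40.4% of all genes at step 5, a measure unlike overlap, and the share of all genes without overlap is not given here. This contrast too holds the unsorted arrays by which the genes were chosen, and nothing is read from which genes overlapped. By the brightest probes, Nodal and Gdf3 kept the groups apart. The other probes of Tdgf1 did so too, the second with -1.77 to -1.23 in control and -4.33 to -3.70 in enriched cells and the dimmest with -1.78 to -1.11 and -4.84 to -4.10. With the mean of all its probes, the Tdgf1 difference was -2.69 at step 4 and -2.24 at step 5.

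**Figure D4:**
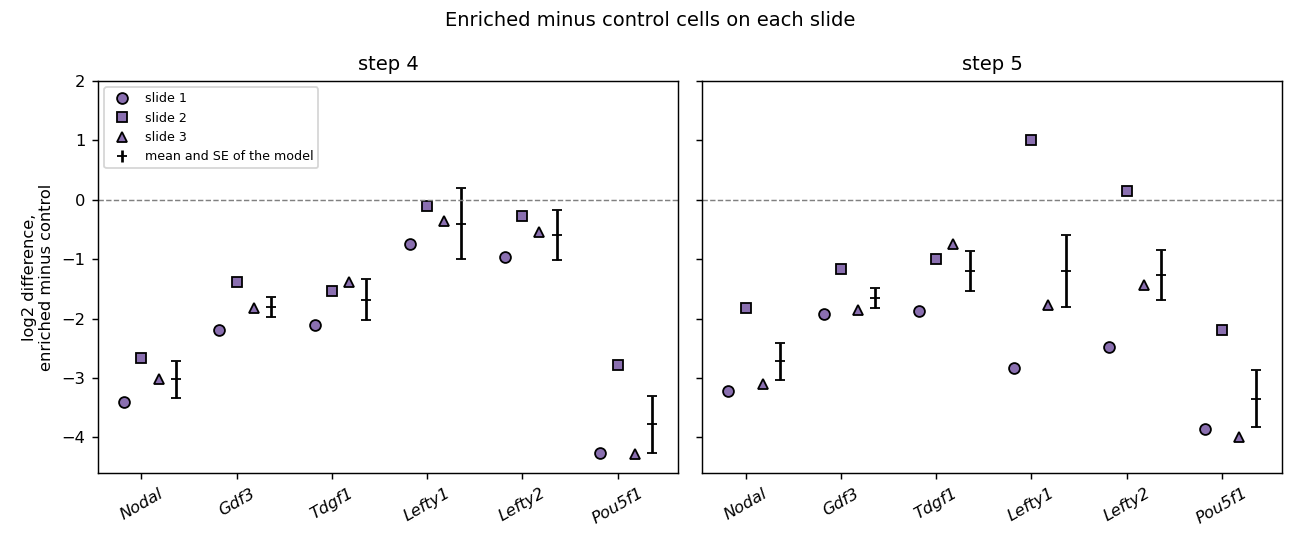
Log2 difference of enriched minus control cells on slides 1, 2 and 3 (circles, squares and triangles) at each step, with the mean and SE of the model as bars and no difference as a dashed line. At step 4 the Lefty1 and Lefty2 points lie between -0.97 and -0.11 and those of Nodal between -3.40 and -2.66. At step 5 slide 2 lies above 0 for both Lefty genes.

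By the mean ratio of the brightest probe, Nodal, Gdf3, Tdgf1 and Lefty2 had the same order of groups. From high to low it was step 5 control, step 4 control, step 5 enriched and step 4 enriched. The control groups overlapped each other for all of them, as did the enriched groups. For Lefty2 and Tdgf1 the step 4 control and step 5 enriched cells overlapped too. By the other probes of Tdgf1 the control groups stood the other way round, at -1.44 and -1.42 at step 4 and -1.56 and -1.54 at step 5. Those probes kept step 4 control cells (-1.71 to -1.17 and -1.68 to -0.97) apart from step 5 enriched cells (-4.33 to -3.70 and -4.84 to -4.10). For Lefty1 the middle groups stood the other way round, with step 5 enriched at -3.95 above step 4 control at -4.35, and these overlapped. Lefty1 minus Lefty2 averaged 0.08 ± 0.29 and 0.27 ± 0.31 in control and enriched cells of step 4 and 0.82 ± 0.42 and 0.87 ± 0.29 in those of step 5.

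Over the 12 arrays, which share the reference and the 3 slides and form 4 groups, the ratio of Nodal ran with that of Pou5f1 at a Pearson r of 0.995 and Gdf3 at 0.98. The values for Tdgf1, Lefty2 and Lefty1 were 0.758, 0.643 and 0.449. The value for Tdgf1 is from its brightest probe, which fell less in enriched cells than its other probes. Correlations of those probes are not given here. Lefty1 and Lefty2 correlated at 0.923. Among 16929 genes with a symbol, the nearest to Nodal were Syce1 (0.997), Pou5f1-rs4 (0.996) and Hormad1 (0.995). Syce1 and Hormad1 encode meiotic chromosome proteins, and in control cells they were above mESC, with Syce1 at 1.49 and 1.67 at steps 4 and 5. In enriched cells Syce1 was at -2.81 and -2.36. Nearest to Gdf3 were Tcl1 (0.996), Gm8909 (0.995) and Nlrp1a (0.994). Lefty1 was nearest to Foxs1 (0.944), Lefty2 (0.923) and Fscn3 (0.92), and Lefty2 to Rhox10 (0.957), Speer4d (0.943) and Nphs1 (0.937). The range differed: Foxs1, a forkhead factor, ran only from 0.18 to 1.33 between group means, while Lefty1 ran from -4.75 to -2.75. By its brightest probe, the nearest to Tdgf1 were Adam11 (0.968), Fbxw10 (0.96) and Clgn (0.94).

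Other genes of the pathway were taken from 5 lists by role, with 43 genes, of which 39 were tested. Acvr1c, Cer1, Mixl1 and T did not pass the filter on dim probes, and Cer1 and Mixl1 were not well above background on any array. In step 4 control cells 9 of the 39 were higher and 10 lower than mESC, beside 21.4% and 17.4% of all genes. In step 4 enriched cells 15 were higher and 13 lower, beside 35.4% and 31.5%. In step 5 control cells 12 were higher and 8 lower, beside 25.6% and 19%, and in step 5 enriched cells 17 and 15, beside 38.3% and 33.1%. These shares lie near those of all genes. Enriched minus control gave 7 higher and 7 lower at step 4 (15% and 16.1% of all genes) and 6 and 10 at step 5 (20.3% and 20.1%).

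The 13 Smads and nuclear partners include genes that TGF-beta family signals induce. The activity of the Nodal signal itself was not measured. In control cells 1 rose and 5 fell at each step, where 5 rose at each step with each array centred on its median. In enriched cells 5 rose and 6 fell at step 4 and 4 rose and 7 fell at step 5. Of all genes, 21.4% and 25.6% rose and 17.4% and 19% fell in control cells of steps 4 and 5. For enriched cells these shares were 35.4% and 38.3%, and 31.5% and 33.1%. The list's median ratio was -0.24, -0.20, -0.14 and -0.48 in step 4 control, step 4 enriched, step 5 control and step 5 enriched cells, beside 0.03 to 0.05 over all genes. Smad7, an inhibitory Smad induced by TGF-beta family signals, gave -1.54, -1.27 and -1.99 in step 4 control cells (SE 0.16, adjusted p = 4.29e-05 by limma) and -1.0, -1.34 and -1.34 in step 5 control cells (adjusted p = 0.000165 by limma). It was lower still in enriched cells, with means of -2.60 and -2.44. Like the Lefty genes, Smad7 was thus below mESC on all 6 control arrays, by smaller ratios. Skil, a co-repressor of Smads that is itself induced by the signal, fell on average by 1.07 in step 4 control cells and by 0.51 at step 5 (adjusted p = 4.77e-05 and 0.00358 by limma), the step 5 call being lost with median centring.

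Foxh1, the DNA-binding partner of Smad2, was at -0.06 ± 0.35 and -0.01 ± 0.44 in control cells of steps 4 and 5, neither different from mESC by the test. In enriched cells its log2 ratio fell by 2.79 and 2.37, with an SE of 0.25 and adjusted p = 3.4e-06 and 8.39e-06 by limma, and enriched minus control was -2.73 and -2.37 (SE 0.35, adjusted p = 0.000576 and 0.000654 by limma). Tgif1, a repressor that binds Smads, fell by 1.80 in both enriched groups (SE 0.14). In control cells it was at -0.51 and -0.64, and both calls there as lower were lost with each array centred on its median, where step 4 turned to 0.07. The step 4 control call was also lost without replicate 1 or replicate 3 of those cells, and the step 5 call without slide 3. Smad4, the common partner, rose by 0.63 to 0.89 in all 4 groups. In enriched cells between the steps, Tgif2 and Smad2 were lower at step 5, by -0.92 and -0.85 (adjusted p = 0.00253 and 0.0145 by limma). The Tgif2 call was lost without any 1 of the slides, and the Smad2 call without replicate 2 of step 4 or replicate 3 of step 5.

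Of the 10 Nodal target genes tested beside the Lefty pair, 4 rose and 2 fell in the control cells of each step. In the enriched cells of each step 3 rose and 4 fell. Of all genes, 21.4% and 25.6% rose and 17.4% and 19% fell in control cells of steps 4 and 5. For enriched cells these shares were 35.4% and 38.3%, and 31.5% and 33.1%. Gsc, a homeobox gene of the organizer, fell in all 4 groups, by 1.06, 1.18, 0.78 and 1.28 in step 4 control, step 4 enriched, step 5 control and step 5 enriched cells (SE 0.14, adjusted p from 1.39e-05 to 0.00133 by limma). Otx2, which is also a forebrain gene, rose in all 4, by 2.87, 3.18, 1.81 and 1.92 (SE 0.18, adjusted p from 1.92e-07 to 2.96e-05 by limma). Eomes and Hhex were not called against mESC in control cells, with means of -0.03 and -0.48 at step 4 and -0.28 and -0.10 at step 5. Both fell in enriched cells, Eomes by 1.36 and 2.14 and Hhex by 2.29 and 2.58. Foxa2, an endoderm and floor plate gene, was 2.53 ± 1.48 and 2.55 ± 1.98 in control cells, highest on replicate 2 at 4.19 and 4.76. It was called higher in both (adjusted p = 0.0226 and 0.019 by limma), and both calls were lost without that array. The step 4 call was also lost without replicate 3. With slide as a block Foxa2 was also higher in the enriched cells (adjusted p = 0.000161 and 0.000282, against 0.083 and 0.112 without the block, by limma).

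Among 6 ligands and processing enzymes, Pcsk5, a convertase that cleaves precursors of this family, rose in all 4 groups, by 1.05, 2.36, 0.90 and 1.99 in step 4 control, step 4 enriched, step 5 control and step 5 enriched cells (SE 0.20). Pcsk6, a related convertase, was at -0.10 and 0.04 in control cells and fell by 1.25 and 0.70 in enriched cells. Its step 5 call was lost with median centring. Inhbb, an activin subunit, fell by 1.25 in step 4 control cells (SE 0.23, adjusted p = 0.00197 by limma). It was also called lower in step 4 enriched cells at -1.23 and in step 5 control cells at -0.95. Both of these calls were lost with median centring, and that of step 5 also without slide 2. Gdf1, a ligand related to Gdf3, was at -0.30 ± 0.73 in step 5 control cells and rose by 2.03 in step 5 enriched cells (SE 0.32, adjusted p = 0.00019 by limma), a difference between them of 2.32 (SE 0.45, adjusted p = 0.00277 by limma), opposite in sign to Gdf3.

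Of 5 receptors and co-receptors tested, Cfc1, which encodes the other co-receptor of the Tdgf1 family, fell in enriched cells by 1.40 and 1.24 (SE 0.09, adjusted p = 4.68e-07 and 7.66e-07 by limma). Enriched minus control was -1.12 at step 4 and -1.67 at step 5 (adjusted p = 0.00037 and 5.79e-05 by limma). The size of the fall in enriched cells depended on the processing, from -4.39 to -1.28 at step 4 and from -3.43 to -1.07 at step 5. In control cells Cfc1 was called lower at step 4, at -0.29, and higher at step 5, at 0.43. These control calls were lost under 8 and 3 of 25 alternatives. Acvr2a, a receptor for Nodal and activin, rose in enriched cells by 1.52 and 1.28 (SE 0.12). It was also called higher in control cells, at 0.76 at step 4 and 0.32 at step 5. The step 5 control call was lost under 15 of 25 alternatives. Of 5 inhibitors and modulators tested, Fst, which binds activin, rose by 1.53 and 1.69 in step 4 control and enriched cells (SE 0.33, adjusted p = 0.00452 and 0.00102 by limma), and the control call was lost without slide 1. Inha, the inhibin alpha subunit, was at 0.08 and 0.17 in control cells and rose by 1.07 and 1.47 in enriched cells (SE 0.17). None of these 5 was called lower in control cells, beside 17.4% and 19% of all genes at steps 4 and 5. With so few genes, nothing is read from this count.

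**Figure D5:**
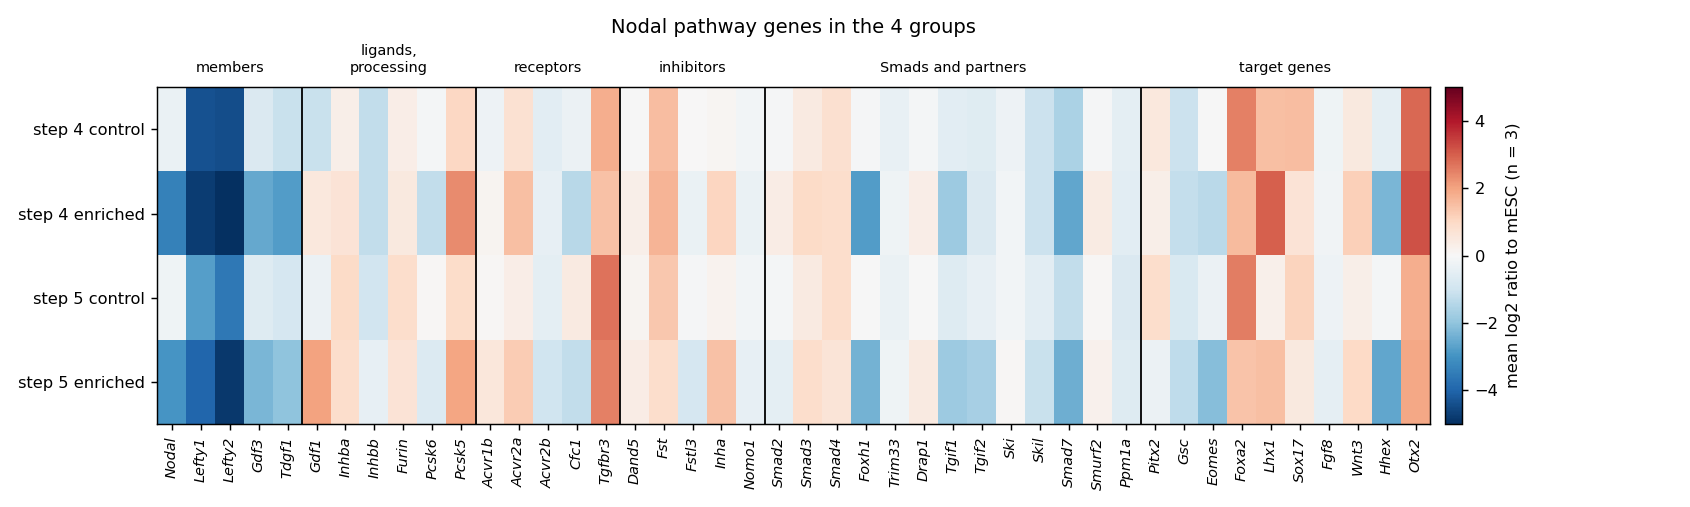
Mean log2 ratio to mESC (n = 3 arrays, colour) of the 5 genes and of the 39 tested pathway genes in each group, ordered by role. Lefty1 and Lefty2 are the darkest blue in the control rows, where Nodal and Foxh1 are pale, and Otx2 and Pcsk5 are red in all rows.

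For comparison, the 15 pluripotency factors other than Pou5f1 had median ratios of -1.03 and -0.90 in control cells of steps 4 and 5. Of the 15, 10 fell at step 4 and 7 at step 5, beside 17.4% and 19% of all genes. These counts depended on the processing: with each array centred on its median they were 4 and 5, over the other settings with all arrays they reached 13 and 11, and with arrays or slides left out they were 6 to 12 and 5 to 11. All 15 fell in both enriched groups, beside 31.5% and 33.1% of all genes, with medians of -4.59 and -4.02. Of the 15, 14 were lower in enriched than in control cells at each step, beside 16.1% and 20.1% of all genes. The exception was Sox2, which is also a neural factor, at -1.47 and -1.38 in control and enriched cells of step 4. Without slide 3, 8 and 10 of the 15 were lower in enriched cells. Genes of the primed epiblast, a later pluripotent state, moved in both directions. Of 8, 2 rose and 0 fell in step 4 control cells, beside 21.4% and 17.4% of all genes. At step 5, 2 rose and 2 fell, beside 25.6% and 19%. With arrays or slides left out, those that rose were 1 to 3 and 1 to 4, and those that fell 0 to 1 and 0 to 3. At step 5 the call of Zic2, a zinc finger factor that neural cells also express, at 0.55 (SE 0.20, adjusted p = 0.0469 by limma) was lost under 17 of 25 alternatives, the slide block among them. Dnmt3a, a DNA methyltransferase that neural cells also express, rose by 2.09 and 2.22 there (SE 0.21). Fgf5, a defining gene of that state, was at 0.39 and 0.06 (SE 0.16, adjusted p = 0.0772 and 0.773 by limma) and was called higher at step 4 with slide as a block (adjusted p = 0.0118 by limma).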

How the data were processed

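Per the labels, 100 ng of RNA of each sample was labelled with Cy5 and set against mESC RNA labelled with Cy3. The authors' scanner output gives, per the file headers, spot means and local background medians as uncorrected intensity, from Agilent Feature Extraction 10.7.3.1 (slides 1 and 3) or 10.5.1.1 (slide 2). They also hold a log10 ratio that the software had background-subtracted and dye-normalized, per the file headers. The deposited value table is in log2, and for 99.4 to 99.5% of probes per array it matches that ratio within 0.001.

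The mean signals were processed in R 4.3.3 with limma 3.58.1 (files read with version 1.17.8 of data.table): normexp with offset 50, loess within arrays, control and flagged spots left out, spots of a probe averaged (39429 probes). A gene was read from its brightest probe. Tests between groups needed Cy5 well above background in all 3 replicates of a group. Tests against mESC took these probes and also those with Cy3 well above background on all 12 arrays. A single linear model on 4 group means with eBayes gave two-sided tests with Benjamini-Hochberg adjustment and a threshold of 0.05. SE values are the model's and SD values the arrays'. The number of arrays, 3 per group, limits the precision.

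The 5 genes and the lists were chosen with earlier results of these data known. Named beside them were Pou5f1 and Nanog, up to 3 genes per list, direction and comparison with the largest differences past the threshold, and the 3 genes most correlated with each of the 5. Not every gene that this rule allows is described, and a gene named in 1 comparison may be given in others. Exceptions are said to be chosen after their values were seen, or are given for a call that failed. Replicate number and slide are the same, and the position on a slide follows the group. Deviations of same-numbered arrays from their group means correlated at 0.13 to 0.747 in 5 of 6 pairs of groups and at -0.134 to 0.228 in step 4 enriched with step 5 control cells. Slide was therefore a block in an alternative, beside other normalizations, probes, filters and left-out arrays. On data simulated for enriched minus control cells at step 4, the share of false calls was above the threshold of 0.05.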

Additional observations from a re-analysis of the deposited data

How the results depend on the processing

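Over 23 alternatives (25 for counts of pathway genes), all 10 calls of the 5 genes in enriched cells against mESC held, and none of the 5 was called between the steps. This includes the replicate block, under which step 5 minus step 4 had adjusted p = 0.0663 for Tdgf1 and 0.404 for Lefty1 (limma). With each array centred on its median in place of loess, the median of all genes rose to 0.30 to 0.42 against mESC and the share of calls that are higher to 83% and 84% in control cells of steps 4 and 5 (55.1% and 57.4% with loess) and to 74.7% and 74.2% in enriched cells (53% and 53.7%). For enriched minus control that share was 65% and 66.1% (48.2% and 50.2% with loess). Under that centring Nodal in control cells was 0.14 at step 4 and 0.20 at step 5, Pou5f1 was -0.06 and -0.19, Lefty2 at step 4 was -3.95, and Gdf3 in step 5 minus step 4 control cells was 0 and Tgif1 in step 4 control cells was 0.07. Pathway genes in step 4 control cells were then 16 higher and 5 lower, and 3 were lower in step 5 control and 9 in step 5 enriched cells. By the scanner's log ratio and by the deposited table, Lefty2 minus Pou5f1 in step 4 control cells was -4.07. The cause of these shifts was not tested. With arrays or slides left out, pathway genes higher ranged from 5 to 10 (step 4 control), 7 to 13 (step 5 control), 11 to 17 (step 5 enriched), 1 to 7 (step 4 enriched minus control) and 3 to 7 (step 5), and those lower from 6 to 11 and 5 to 8 in step 4 and step 5 control cells. These fits have fewer samples. Pou5f1 in step 5 minus step 4 enriched cells ranged from -0.16 to 0.88, reversing without replicate 2 of step 5 enriched cells. Of 154 calls on listed genes open to naming, 87 held under every alternative and 35 were lost without 1 array. The replicate block called 10.9% of all genes between the steps in enriched cells (6.42% without it) and, of the single-gene calls printed here, changed those of Foxa2, Fgf5 and Zic2. Normalization of intensities between arrays (Aquantile) leaves ratios as they are by construction.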
